A study of Homo sapiens with 6 samples.

Results

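The human transcriptome holds many long noncoding RNAs that are read from the DNA strand opposite a known gene and are named after it with the suffix AS1. These antisense genes and their sense partners were followed in SW839 cells, an established renal cell carcinoma (RCC) line, after knockdown of RNF25. A gene X-AS1 was taken up where X was also listed and where both reached a normalized count of 10 in 3 or more of the 6 libraries, with EPB41L4A-AS1 and OIP5-AS1 left out. This left 378 antisense genes, each with 1 partner, of the 896 X-AS1 genes among the 30267 genes listed. Of the 860 whose X was listed as well, 21 reached the level without their partner, 387 had a partner at the level and stayed below it themselves, and in 73 neither gene reached it. Levels alone chose the members, but genes at the level in 1 group only entered through the group in which they were high.

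The study compared 3 libraries from cells with a short hairpin RNA against RNF25 (genotype shRNF25) with 3 libraries from cells with the pLKO vector (shControl), all by sequencing of total RNA. RNF25 is an E3 ubiquitin ligase, and the question of the comparison was which transcripts change when it is depleted. Every sample, controls included, carries the same treatment text about the shRNF25 plasmid, so the groups rest on titles and genotypes. The labels give 1 cell line and 1 name of a hairpin construct. The series text calls the samples biological triplicates without saying what was separate, so p-values measure the spread between these libraries, part of which may be technical, and effects of the hairpin itself cannot be told apart from loss of RNF25. The names of the control libraries also differ in form from each other, and a batch behind them cannot be told apart from the group.

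Antisense long noncoding RNAs arise from several arrangements of genes. Many start within or next to the promoter of the sense gene and run away from it, since promoters can fire in both directions, while others start downstream and run into the sense gene from its 3′ side or lie wholly within it. Some are known to act on their neighbour through chromatin, transcription or RNA pairing, and many are short-lived because the nuclear exosome degrades them. Few have an established function.

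Reads assigned to genes numbered 18647460 to 19943154 in a library, and libraries of the same group correlated at 0.976 or more across genes. RNF25 itself was at 588 ± 92.0 in shControl and 242 ± 25.7 in shRNF25 (normalized counts, SD over 3 libraries), a log2 change of -1.27 (adjusted p = 0.000585, limma). Of the 7 listed markers of renal carcinoma epithelium, PAX8, KRT8, KRT18 and VIM were present in all libraries, LHX1 was at or near 0 and CA9 was low, at 7.74 to 50.7 in shControl and 1.85 to 8.20 in shRNF25. The summed normalized count of the 7 was 38706 to 50245 in shControl and 53952 to 57819 in shRNF25. Of 10 markers of blood, endothelium and fibroblasts, 5 were at a testable level, and their summed normalized count was 1575 to 1978 in shControl and 1286 to 1579 in shRNF25. CD3E and DCN were at or near 0. COL1A1, a fibroblast marker, was at 1090 to 1258 in shControl and 848 to 992 in shRNF25. PECAM1, an endothelial marker, was at 350 to 466 and 399 to 549. CDH5, an endothelial cadherin, was at 73.0 to 199 in shControl and 3.64 to 8.31 in shRNF25, and its part in the results was not tested. In bulk RNA, fewer cells of a type and less RNA per cell cannot be told apart.

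The annotation (GENCODE 29, GRCh38) gave a position for 361 pairs, and RefSeq for 4 more. All 365 lay on opposite strands. GENCODE 29 lists 273 of the antisense genes as antisense, 39 as lincRNA and 38 as processed transcript, and 370 partners as protein coding. In 157 pairs the 5′ ends overlapped, in 36 they faced each other with a gap of at most 1000 bases, in 76 the 3′ ends overlapped, in 69 the antisense gene lay inside its partner and in 21 the partner lay inside the antisense gene. The remaining pairs were farther apart or had no position.

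The sequences below show the starts of 4 antisense genes on which results turned, from RefSeq (GRCh38.p14). SSTR5-AS1 and SCAMP1-AS1 start head to head with their partners. Their stretches are given on the partner's strand, in lower case for the first 50 bases of the antisense gene and in capitals for the space up to the partner's start, on chr16:1078682-1078780 for SSTR5 and chr5:78360458-78360582 for SCAMP1. INHBA-AS1 (chr7:41693669-41693968, plus strand) and SPRY4-AS1 (chr5:142325043-142325342, plus strand) start inside introns of their partners. For these, 250 bases before and 50 after the start are given, with capitals marking motif letters.
SSTR5-AS1 and SSTR5: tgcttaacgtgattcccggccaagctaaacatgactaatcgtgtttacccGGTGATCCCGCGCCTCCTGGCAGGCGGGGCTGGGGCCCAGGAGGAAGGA
SCAMP1-AS1 and SCAMP1: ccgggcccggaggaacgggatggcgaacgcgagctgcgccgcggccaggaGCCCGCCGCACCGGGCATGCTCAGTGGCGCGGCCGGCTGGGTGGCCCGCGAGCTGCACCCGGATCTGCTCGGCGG
INHBA-AS1: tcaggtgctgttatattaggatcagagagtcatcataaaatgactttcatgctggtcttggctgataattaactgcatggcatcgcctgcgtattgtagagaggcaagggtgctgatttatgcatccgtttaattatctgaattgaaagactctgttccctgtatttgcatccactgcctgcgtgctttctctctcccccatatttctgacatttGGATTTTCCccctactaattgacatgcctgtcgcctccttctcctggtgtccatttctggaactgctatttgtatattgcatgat
SPRY4-AS1: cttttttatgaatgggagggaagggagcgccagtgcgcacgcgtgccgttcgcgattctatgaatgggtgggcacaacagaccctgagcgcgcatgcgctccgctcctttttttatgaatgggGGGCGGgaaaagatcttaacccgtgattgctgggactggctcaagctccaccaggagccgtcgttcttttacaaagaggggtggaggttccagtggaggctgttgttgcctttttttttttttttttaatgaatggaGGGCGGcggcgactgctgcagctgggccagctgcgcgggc

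Windows of this length were on hand for 267 antisense genes, 307 partners and 27305 genes in all, and motifs were searched on both strands. The INHBA-AS1 window holds GGANTTTCC, letters of an NF-κB type site, once. It was found in 1.87% of antisense gene windows and 1.64% of all windows. The SPRY4-AS1 window holds GGGCGG, the GC box, at 2 positions. The GC box was found in 56.6% of antisense gene windows, 69.4% of partner windows and 44.6% of all. TATAAA was found in 6.74% of antisense gene windows and 12.0% of all. The median GC content was 64.0% for antisense genes, 67.0% for partners and 58.3% for all. CCAAT was found in 34.8% and 35.7% and CCGGAAG, letters of an ETS type site, in 13.9% and 10.7%. No motif holds the letters of another, and such matches describe letters, not bound sites.

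Antisense genes were mostly expressed at low levels. The median normalized count of the 378 in shControl was 31.7, against 735 for their partners, and 239 of them had a shControl mean under 50. To compare genes, the normalized count was divided by exon length in kilobases. On this scale the median antisense gene was at 14.2 per kb and the median partner at 122 per kb in shControl, and the median partner exceeded its own antisense gene 7.74-fold (quartiles 2.35 and 24.1, 361 pairs). In 50 of 361 pairs the antisense gene had the higher level per kb. The median ratio was 7.07 in shRNF25.

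The 5 antisense genes with the highest mean level per kb over both groups were LOXL1-AS1, VPS9D1-AS1, SLC9A3-AS1, RNASEH1-AS1 and TP73-AS1. LOXL1-AS1 reached normalized counts of 3439, 2396 and 1919 in the shControl libraries and 4489, 4505 and 4252 in the shRNF25 libraries. It thus came close to the level of LOXL1, a lysyl oxidase that crosslinks elastin, at 612 per kb against 844 per kb in shControl. TP73-AS1, at 154 per kb, stood 16.1-fold above TP73, a transcription factor of the p53 family, and its counts of 1319 to 1703 in shControl and 1357 to 1533 in shRNF25 overlapped. SLC9A3-AS1, whose partner encodes a sodium-proton exchanger of renal tubules, was 7.67-fold above it per kb, and both genes were lowest in shControl replicate 1, where SLC9A3-AS1 had 544 against 1012 and 1165 in the other control libraries.

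**Figure D1:**
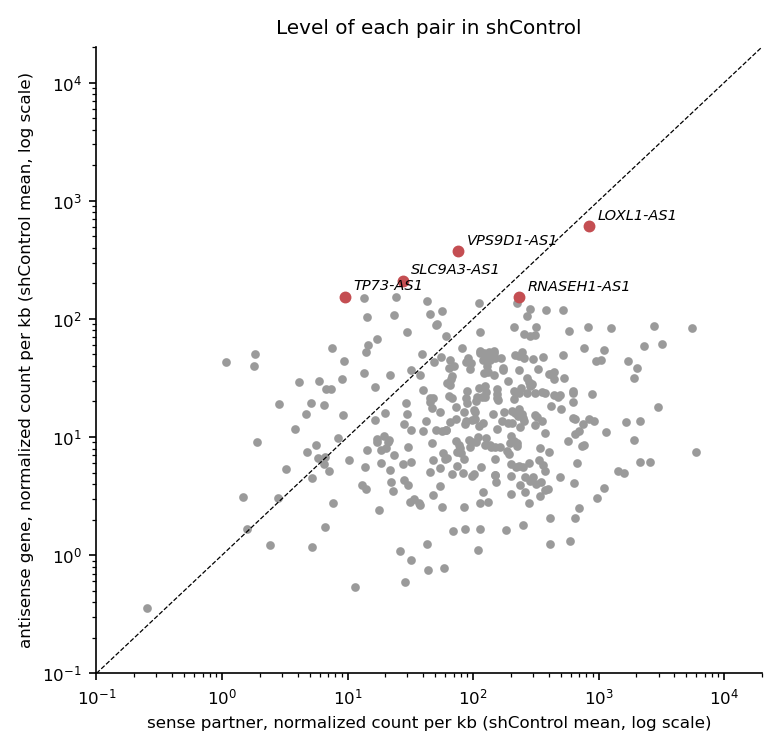
Normalized count per kb of each antisense gene (vertical, log scale) against that of its sense partner (horizontal, log scale), shControl means of 361 pairs. The dashed line marks equal levels, with 50 antisense genes above it, and the 5 genes with the highest mean level per kb are named in red.

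A gene was called changed where the adjusted p of limma was below 0.05 and the change was at least 1.5-fold. Of the 378 antisense genes, 59 (15.6%) were called higher and 16 (4.23%) lower in shRNF25. Over all 16554 genes at the level, 15.7% were called, 8.65% higher and 7.1% lower. The other noncoding genes were close to the antisense genes, with 14.3% of 1601 called higher and 5.25% lower, as were the 672 GENCODE 29 antisense genes outside the 378, with 12.9% and 4.17%, whereas among protein coding genes 7.56% were higher and 7.71% lower. The median log2 change was 0.14 for the antisense genes, -0.03 for their partners, 0.22 for the other noncoding genes and -0.01 for all genes. A change above 0 was measured for 232 antisense genes and one below 0 for 146.

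Of the calls, 13 higher and 3 lower belonged to the 23 antisense genes that reached the level through 1 group only. Among the other 355, 46 (13.0%) were called higher and 13 (3.66%) lower, beside 7.45% and 6.83% of the genes of all kinds treated the same way. With quantile normalization in place of the deposited scaling, 36 were higher and 26 lower. Calls also depended on the number of knockdown libraries. Without shRNF25 replicate 1, 2 or 3, the antisense genes called higher numbered 21, 27 and 25 and those called lower 8, 11 and 9. The shares of all genes called with quantile normalization or without these libraries are not given here. Whether antisense genes differed from all genes under these settings is therefore not shown.

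The 3 shRNF25 libraries lay wholly above the 3 shControl libraries for 107 antisense genes and wholly below for 45, which is 28.3% and 11.9%. Over all genes these shares were 20.7% and 21.8%. Of the antisense genes, 20 reached the level through shRNF25 alone and 3 through shControl alone. For these the filter itself fixed the lack of overlap, and they are included in the 107 and the 45. Shares without such genes are not given here, for antisense genes or for all genes. Whether the shares differ without them is therefore not shown. The antisense genes took 0.156% to 0.160% of the reads in shControl and 0.198% to 0.211% in shRNF25. In the deposited scaling 1 read was worth 1.03 to 1.11 normalized counts in shControl and 0.911 to 0.953 in shRNF25. A gene with equal normalized counts in both groups therefore also took a larger share of the reads in shRNF25. The antisense genes' summed normalized counts of 31600 to 35227 in shControl did not overlap those of 35913 to 37297 in shRNF25. The gap between these sums rested on LOXL1-AS1, the most abundant antisense gene. Without it the sums of 29205 to 31788 and 31661 to 32807 overlapped. Spread was wider for the antisense genes than for their partners. The median SD was 24.0% of the mean in shControl and 13.6% in shRNF25 against 16.2% and 5.05%.

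Strand bears on all of these values. The libraries were made with a stranded kit, but whether reads were counted by strand is not given in the sources used here. Of the GENCODE 29 antisense genes whose exons are wholly covered by exons on the other strand, 17 of 277 (6.14%) were listed. Of those covered by over 0% and under 25%, 946 of 1150 (82.3%) were listed. The share was 1477 of 3151 (46.9%) for those not covered and 75 of 162 (46.3%) for those covered by 75% to under 100%. None of the 361 members found in GENCODE 29 was wholly covered, and the median one had 7.21% of its exon bases covered. Without strand, reads from a gene and its antisense partner cannot be told apart over the exon bases that both share. Total RNA also holds unspliced RNA. Without strand, reads from a partner's introns could thus be counted for antisense exons that lie in them, which was not tested. Of the 92 antisense genes with no exon base covered, 16 were called higher and 4 lower. That selection does not leave out such intron reads.

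The 8 largest increases among the called antisense genes belonged to SSTR5-AS1, TSPEAR-AS1, PGM5P4-AS1, ZFHX4-AS1, SREBF2-AS1, VIM-AS1, KLF3-AS1 and TSPOAP1-AS1. All but ZFHX4-AS1 reached the level of 10 through the shRNF25 libraries alone, so their values are given without a test. SSTR5-AS1 (chromosome 16, 1064093 to 1078731, minus strand) was nearly silent in shControl, with 2.21, 1.03 and 1.08, and reached 174, 182 and 216 in shRNF25. These values rest on 4 reads in shControl and 615 in shRNF25. SSTR5, a receptor for somatostatin whose gene starts 50 bases away, went from 0, 1.03 and 0 to 48.3, 55.4 and 49.6, a ratio of reads of 143 that rests on 1 read in shControl (95% interval 25.4 to 5696 by the exact binomial method, which covers counting error only and is no test of the groups). Both genes of this head to head pair had nearly all their reads in shRNF25, on either side of the 49 bases in capitals above.

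TSPEAR-AS1 lies inside TSPEAR, the gene of an extracellular protein needed for teeth and hair follicles. It had 5.53, 3.08 and 0 in shControl and 31.0, 29.6 and 28.6 in shRNF25. TSPEAR rose from 10.7 ± 2.90 to 68.7 ± 13.4 (SD, n = 3), a log2 change of 2.59 (adjusted p = 0.000371, limma). VIM-AS1, which starts within the gene of the intermediate filament protein vimentin and runs away from it, had 3.32, 3.08 and 3.24 in shControl and 15.5, 13.9 and 14.3 in shRNF25. VIM rose from 355 ± 133 to 832 ± 43.4 (log2 change 1.31, adjusted p = 0.00805, limma). Exons on the other strand cover 32.2% of the exon bases of VIM-AS1 and 49.2% of those of TSPOAP1-AS1.

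SREBF2-AS1 and KLF3-AS1 differed from these in that their partners did not pass the test. SREBF2-AS1 was at 4.42, 4.10 and 3.24 in shControl and 16.4, 23.1 and 15.3 in shRNF25, while SREBF2, the transcription factor of cholesterol synthesis genes, stayed at 4441 ± 464 against 4439 ± 37.3 (SD, n = 3). KLF3-AS1 was at 5.53, 6.16 and 4.32 against 25.5, 16.6 and 21.0. KLF3, a zinc finger repressor, had a log2 change of 0.12 (adjusted p = 0.703). ZFHX4-AS1 rose from 19.9, 5.13 and 19.4 to 60.1, 45.3 and 53.4 (log2 change 1.96, SE 0.447, adjusted p = 0.0144), with ZFHX4, a zinc finger homeobox factor, at a log2 change of 0.45 (adjusted p = 0.112). Without shRNF25 replicate 1 or 3 the adjusted p of ZFHX4-AS1 was 0.0715 and 0.0557.

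PGM5P4-AS1 was at 7.74, 2.05 and 5.40 in shControl and 27.3, 16.6 and 20.0 in shRNF25, and its partner PGM5P4 at 2.21, 11.3 and 17.3 against 35.5, 42.5 and 53.4. PGM5P4 is a pseudogene copy of PGM5, and reads of the copies may be split between them, so both values are uncertain. TSPOAP1-AS1 was at 1.11, 7.18 and 4.32 against 10.0, 14.8 and 20.0. TSPOAP1, which encodes a binding protein of presynaptic zones, rose from 59.1 ± 16.6 to 263 ± 14.6 (log2 change 2.17, adjusted p = 0.000194).

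The largest falls included several antisense genes whose partners encode growth factors, cytokines and receptors. INHBA-AS1 (chromosome 7, 41693916 to 41779388, plus strand) had 400.2, 320.1 and 277 in shControl and 57.4, 51.7 and 61.0 in shRNF25. All knockdown libraries were far below all control libraries, a log2 change of -2.52 (SE 0.174, adjusted p = 3.58e-05, limma). INHBA, the activin A subunit, fell with it from 26617 ± 2101 to 3387 ± 119 (SD, n = 3; log2 change -2.97, adjusted p = 9.36e-07). The antisense to sense ratio did not pass the test (log2 change 0.45, adjusted p = 0.108).

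IL6-AS1, which overlaps the 5′ end of the cytokine gene IL6, had 12.2, 19.5 and 22.7 in shControl and 3.64, 5.54 and 4.77 in shRNF25. It reached the level through shControl alone. IL6 fell from 4543, 3551 and 3016 to 269, 235 and 264, to 6.91% of the control mean (log2 change -3.83, adjusted p = 1.91e-06). Since IL6 fell further than its antisense gene, the ratio of IL6-AS1 to IL6 was 4.30-fold higher in shRNF25.

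EGFR-AS1 lies inside EGFR, the epidermal growth factor receptor gene. It fell from 22.1, 25.7 and 45.3 to 6.38, 11.1 and 9.53 (log2 change -1.64, SE 0.350, adjusted p = 0.0105), and EGFR from 14315 ± 2579 to 6945 ± 214 (log2 change -1.03, adjusted p = 0.00132). The call of EGFR-AS1 was lost without shRNF25 replicate 1 (adjusted p = 0.0532). FAM83A-AS1 lies inside FAM83A, which takes part in EGFR signalling, and was at 17.7, 23.6 and 46.4 against 6.38, 6.46 and 5.72, at the level in shControl alone. FAM83A fell from 739 ± 316 to 144 ± 11.4 (log2 change -2.27, adjusted p = 0.000415).

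CYP1B1-AS1 and SRD5A3-AS1 fell with partners that encode enzymes of steroid and lipid metabolism. CYP1B1-AS1 went from 73.0, 67.7 and 147 to 28.2, 28.6 and 30.5 (log2 change -1.59, adjusted p = 0.00512), and CYP1B1, a cytochrome P450, from 3341, 2764 and 7484 to 888, 879 and 883. Both genes were highest in shControl replicate 3. SRD5A3-AS1 went from 24.3, 23.6 and 24.8 to 6.38, 14.8 and 7.63 (log2 change -1.33, adjusted p = 0.0224), and SRD5A3, a reductase needed for N-glycosylation, from 887 ± 163 to 281 ± 26.5 (log2 change -1.64, adjusted p = 0.000196). The call of SRD5A3-AS1 was lost without shControl replicate 2 or shRNF25 replicate 1 or 3 (adjusted p = 0.0577, 0.0968 and 0.0908).

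AFAP1-AS1 and PRMT5-AS1 changed where their partners were not called. AFAP1-AS1, which overlaps the 3′ end of the actin filament protein gene AFAP1, fell from 380.3, 304 and 224 to 130.3, 137 and 135 (log2 change -1.14, adjusted p = 0.00351). AFAP1 was at 1212 ± 127 and 1076 ± 81.4 (log2 change -0.17, adjusted p = 0.340), and the ratio fell by 0.97 on the log2 scale (adjusted p = 0.00842). PRMT5-AS1 was at 11.1, 12.3 and 11.9 against 2.73, 3.69 and 4.77, at the level in shControl alone. PRMT5, an arginine methyltransferase, had a log2 change of -0.36, under the 1.5-fold limit.

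**Figure D2:**
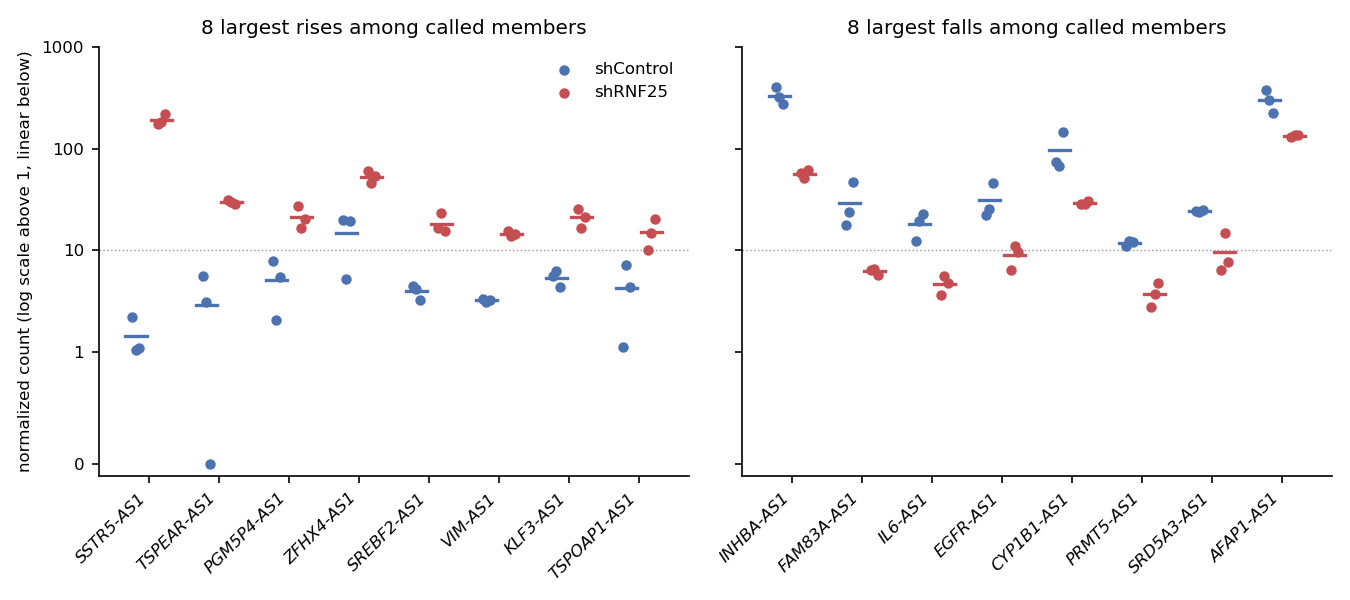
Normalized count in each library of the 8 called antisense genes with the largest rises (left) and the 8 with the largest falls (right), shControl in blue and shRNF25 in red, bars at the means of 3 libraries, on a vertical axis that is logarithmic above 1 and linear below. The dotted line is the level of 10. The genes were chosen among called members without overlap between the groups. All rises but ZFHX4-AS1 passed the level through shRNF25 alone, and IL6-AS1, FAM83A-AS1 and PRMT5-AS1 through shControl alone.

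Among the partners, 29 (7.67%) were called higher and 26 (6.88%) lower, near the 8.65% and 7.1% of all genes. In 19 pairs (5.03%) both genes were called in the same direction, 12 higher and 7 lower, and in 1 pair in opposite directions. Over all 4590 pairs of neighbouring genes on opposite strands, 2.64% were called in the same direction and 0.436% in opposite directions, and over the 1324 other pairs of a noncoding and a coding gene 4% and 0.453%. In 8 of the 19 pairs the antisense gene reached the level through 1 group only. Where both genes were at the level in libraries of both groups, 11 of 354 pairs (3.11%) were called in the same direction, 6 higher and 5 lower, beside 1.91% over all such pairs and 2.59% over the other such pairs of a noncoding and a coding gene. Without shRNF25 replicate 1 or 3 the pairs called in the same direction numbered 9 and 11.

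Besides the pairs above, those that moved together and are named here after their values were seen included developmental transcription factors. NR2F1-AS1 rose from 262 ± 19.4 to 396 ± 15.3 (log2 change 0.60, adjusted p = 0.00870) and NR2F1, an orphan nuclear receptor, from 1746 ± 139 to 2924 ± 71.8 (log2 change 0.75, adjusted p = 0.00133). TBX2-AS1, which spans the T-box gene TBX2, rose from 11.1, 10.3 and 13.0 to 33.7, 24.0 and 30.5 (log2 change 1.28, adjusted p = 0.00904), with TBX2 at 0.77 (adjusted p = 0.00673). HMGA2-AS1, for which no position was found, fell from 114, 111 and 106 to 65.6, 63.7 and 59.1 (log2 change -0.80, adjusted p = 0.00714), with the chromatin protein gene HMGA2 at -0.85 (adjusted p = 0.00467). RASSF8-AS1 rose with RASSF8 (log2 changes 0.97 and 0.61, adjusted p = 0.00315 and 0.0164).

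Across the 378 pairs, the log2 changes of antisense gene and partner had a Pearson correlation of 0.58 and a Spearman correlation of 0.33, and 0.49 and 0.32 without SSTR5-AS1. The pairs share the same 6 libraries, so these values are descriptions. For the 1324 other pairs of a noncoding and a coding gene they were 0.38 and 0.28. The changes had the same sign in 221 pairs (58.5%).

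**Figure D3:**
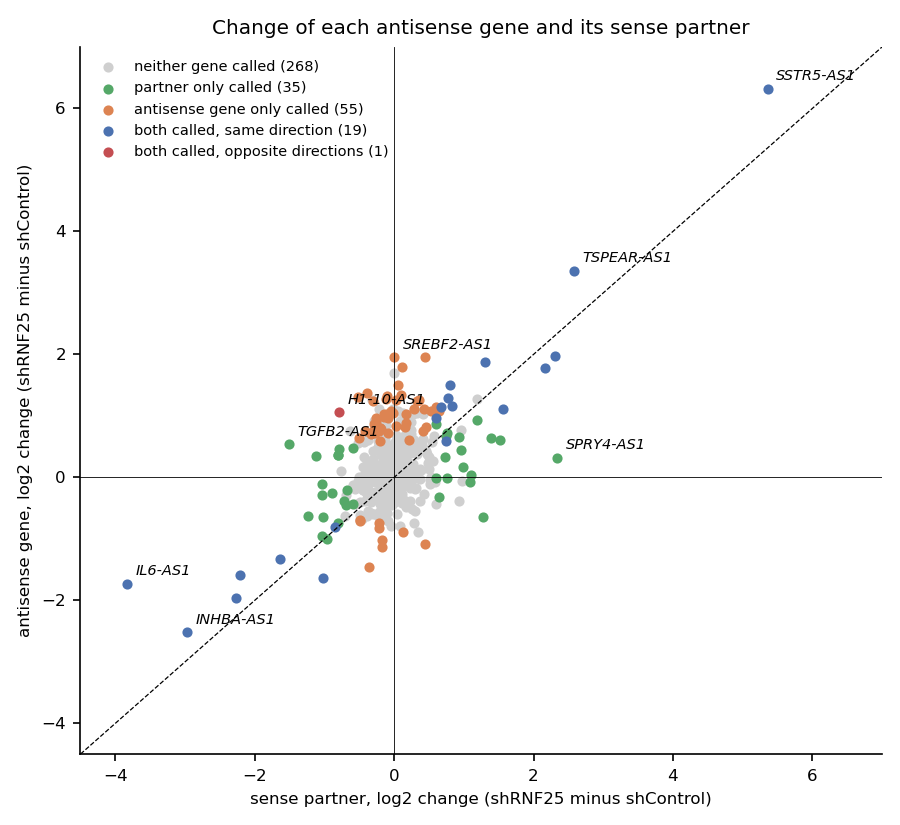
Log2 change of each antisense gene (vertical) against that of its sense partner (horizontal) for 378 pairs, coloured by which of the 2 genes was called, with equal change on the dashed line. SSTR5-AS1, TSPEAR-AS1, INHBA-AS1 and IL6-AS1 lie at the ends of the cloud of 19 pairs called in the same direction, and many called antisense genes sit above partners near 0.

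In 268 pairs neither gene was called. Among pairs with a call, the commonest pattern was an antisense gene called higher next to a partner that was not called, in 46 pairs, 39 of them with an antisense gene at the level in libraries of both groups. The partners' log2 changes in these pairs ran from -0.52 to 0.64, and 26 were below 0. To test whether the 2 genes of a pair moved apart, the log2 ratio of antisense to sense gene was compared between the groups over all 4590 pairs. The ratio was called higher in 53 pairs of the 378 (14.0%) and lower in 14 (3.70%), beside 11.9% and 4.99% over all pairs and 11.4% and 3.78% over other pairs of a noncoding and a coding gene. In 35 of the 46 pairs the ratio rose, and in 11 a difference between the 2 genes was not shown. These ratio counts include antisense genes at the level in 1 group only, for which the filter favoured a changed ratio. Ratio counts without them are not given here. Without shRNF25 replicate 1, 2 or 3 the ratio was called in 27, 33 and 23 pairs in place of 67.

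Among antisense genes higher without their partner, those described next were chosen after their values were seen, as well expressed cases. PCBP1-AS1, which spans the gene of an RNA-binding protein, had 103, 116 and 119 in shControl and 313, 272 and 296 in shRNF25 (log2 change 1.38, SE 0.139, adjusted p = 0.000270). PCBP1 was at 403 ± 22.4 and 308 ± 43.9 (adjusted p = 0.0746), and the ratio rose 3.41-fold (adjusted p = 0.000254). ITGB2-AS1, inside the gene of a leukocyte integrin, had 48.6, 51.3 and 75.5 against 149, 147 and 147 (log2 change 1.35, adjusted p = 0.00184), while ITGB2 had a log2 change of 0.09 (adjusted p = 0.627).

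GABPB1-AS1, whose partner encodes a subunit of an ETS family transcription factor, rose from 549, 489 and 549 to 875, 867 and 729 (log2 change 0.63, adjusted p = 0.00647). GABPB1 went the other way, from 376 ± 54.2 to 263 ± 19.8, but at 1.43-fold stayed under the limit (log2 change -0.51). Their ratio rose 2.21-fold (adjusted p = 0.00115). WARS2-AS1, next to a mitochondrial tRNA synthetase gene, rose from 234, 240.1 and 217 to 391, 380.5 and 395 (log2 change 0.75, adjusted p = 0.00262), with WARS2 at -0.22 (adjusted p = 0.315).

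SCAMP1-AS1, whose start is shown above, had 53.1, 78.0 and 75.5 against 133, 146 and 139 (log2 change 1.03, adjusted p = 0.00524). SCAMP1, a carrier membrane protein gene that starts 76 bases away in the other direction, was at 886 ± 178 and 814 ± 40.6 (log2 change -0.10, adjusted p = 0.655), and the ratio rose 2.19-fold (adjusted p = 0.0137). LOXL1-AS1 rose as well (log2 change 0.81, adjusted p = 0.0146), with LOXL1 at 0.15 (adjusted p = 0.307), and its call was lost without shControl replicate 2 or any 1 of the shRNF25 libraries (adjusted p = 0.0514 to 0.0673).

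VPS9D1-AS1 was the best expressed antisense gene to fall without its partner. It went from 877, 483 and 604 to 311, 357 and 362 (log2 change -0.89, adjusted p = 0.0141), with VPS9D1 at 0.13 (adjusted p = 0.559), and the ratio fell by 1.02 on the log2 scale (adjusted p = 0.0160). Its call was lost without shRNF25 replicate 1 (adjusted p = 0.0741). In all, 9 antisense genes were lower while the partner was not called, MNX1-AS1, FOXD2-AS1, THAP9-AS1 and MMP25-AS1 among them.

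H1-10-AS1 and H1-10 were the pair called in opposite directions. H1-10-AS1 was at 12.2, 7.18 and 11.9 in shControl and 26.4, 25.9 and 16.2 in shRNF25 (log2 change 1.06, SE 0.328, adjusted p = 0.0473). The linker histone gene H1-10 fell from 1858, 1417 and 1140 to 866, 821 and 809 (log2 change -0.79, adjusted p = 0.00972). The ratio rose 3.63-fold (adjusted p = 0.00543). The call of H1-10-AS1 was near the threshold and was lost without shControl replicate 2 (adjusted p = 0.114), without any 1 of the shRNF25 libraries (adjusted p = 0.0617 to 0.183) and with DESeq2 (adjusted p = 0.0658).

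In 35 pairs the partner alone was called, 17 higher and 18 lower. SPRY4, an inhibitor of receptor tyrosine kinase signalling, rose from 572, 422 and 568 to 2703, 2668 and 2479 (log2 change 2.34, adjusted p = 1.67e-05). SPRY4-AS1, which starts in an intron of SPRY4 at the sequence shown above, was at 17.7, 10.3 and 16.2 against 12.8, 15.7 and 29.5 (log2 change 0.32, adjusted p = 0.575). The groups overlapped for SPRY4-AS1, and the ratio fell by 2.02 on the log2 scale (adjusted p = 0.00417).

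TGFB2, a transforming growth factor, went from 15613, 7864 and 9541 to 3496, 3991 and 3681 (log2 change -1.50, adjusted p = 0.00171), while TGFB2-AS1 was at 9.95, 4.10 and 8.63 against 10.0, 10.2 and 12.4. Their ratio was 4.12-fold higher in shRNF25. TGFB2-AS1 reached the level through shRNF25 alone and rests on few reads, so no test is given for it. NUTM2B-AS1, at 1125, 541 and 568 against 433, 498 and 421, had a log2 change of -0.64 (adjusted p = 0.102), and NUTM2B one of 1.27 (adjusted p = 0.0204). The ratio fell by 1.91 on the log2 scale (adjusted p = 0.00906). NUTM2B has near-identical copies in the genome, so its value of 9.30 ± 2.38 against 23.9 ± 6.10 is uncertain.

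**Figure D4:**
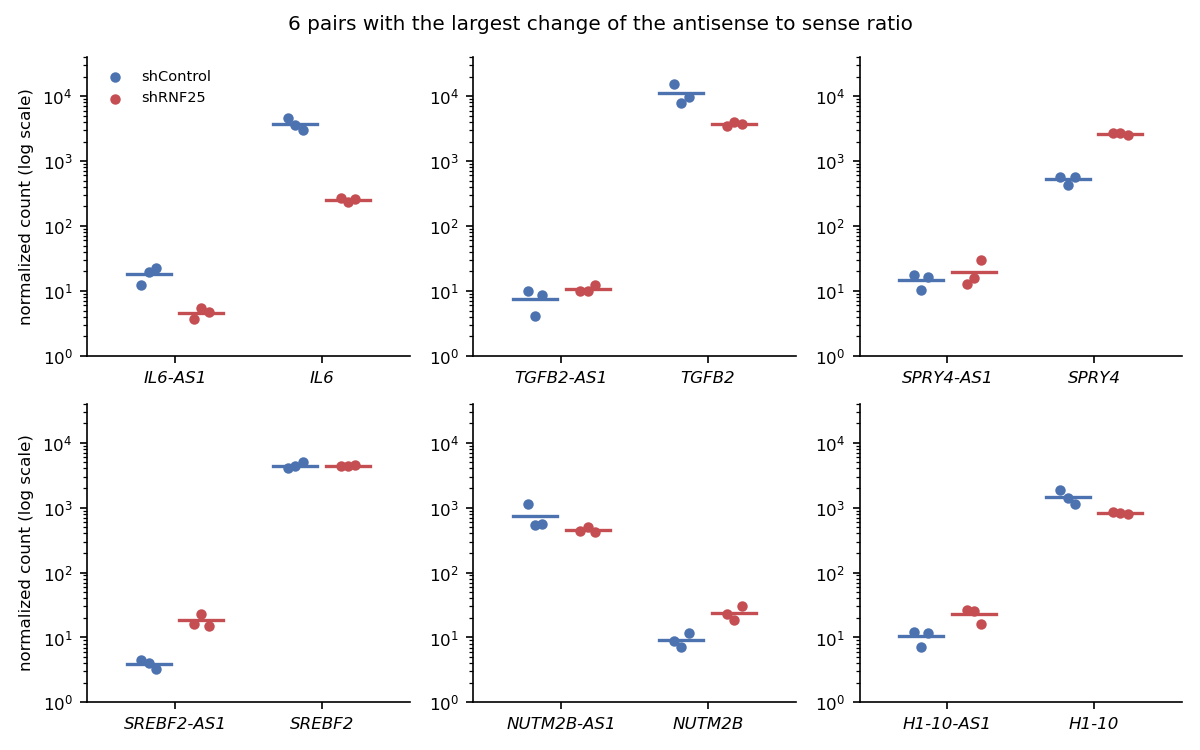
Normalized counts (log scale) of antisense gene (left in each panel) and sense partner (right) for the 6 called pairs with the largest change of the ratio, one point per library, shControl in blue and shRNF25 in red, bars at the means of 3 libraries. SPRY4 and NUTM2B stand higher in shRNF25, IL6, TGFB2 and H1-10 lower, and SREBF2 level. SREBF2-AS1, IL6-AS1 and TGFB2-AS1 reached the level of 10 through 1 group only.

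Among the 18 pairs with only the partner lower, the antisense gene was below 0 in 12 and above 0 in 6. HAS2-AS1, named after its values were seen, was at 43.1, 30.8 and 32.4 against 17.3, 26.8 and 10.5. It was 1.95-fold lower by group means (adjusted p = 0.0664, limma). HAS2, a hyaluronan synthase, was close to it at a log2 change of -0.96 (adjusted p = 0.00108, limma). For OSMR-AS1 the log2 change was 0.46 (adjusted p = 0.238) beside -0.79 for OSMR, a cytokine receptor subunit (adjusted p = 0.00259), and the ratio rose 2.38-fold (adjusted p = 0.0147). Among the 17 pairs with only the partner higher, the antisense gene was above 0 in 12.

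The calls were unevenly spread over the arrangements of the pairs, which were not compared by a test. Where the 5′ ends overlapped, 36 of 157 antisense genes (22.9%) were higher and 6 lower. Of the 69 inside their partner 11 (15.9%) were higher and 3 lower, and of the 21 that span it 4 were higher and none was called lower by limma, with 1 lower at an unadjusted p under 0.05, 0 called by edgeR and 1 by DESeq2. Where the 3′ ends overlapped, 5 of 76 (6.58%) were higher and 4 lower, and of the 36 head to head with a gap 2 were higher and 1 lower. Leaving out the genes at the level in 1 group only, 28 of 146 (19.2%) were higher with overlapping 5′ ends and 4 of 72 (5.56%) with overlapping 3′ ends. Median log2 changes were 0.31 and -0.05 for these classes, while those of their partners were -0.02 and -0.01.

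**Figure D5:**
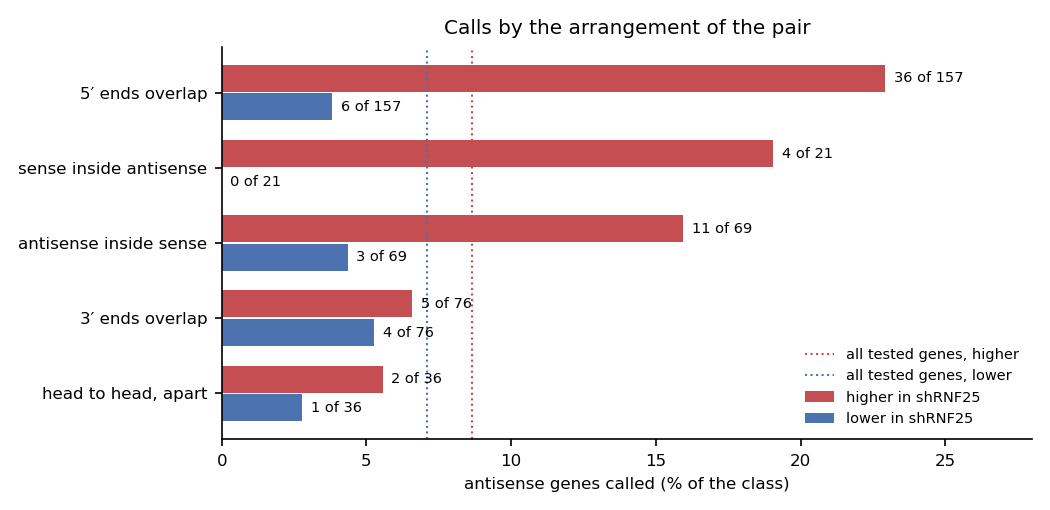
Share of antisense genes called higher (red) and lower (blue) in shRNF25 for 5 arrangements of the pair, with counts beside the bars. Dotted lines give the shares over all tested genes, 8.65% higher and 7.1% lower, and the bar for overlapping 5′ ends is the longest at 22.9%.

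Within arrangements the correlations of the changes of both genes were not compared by a test. For antisense genes inside their partner the Pearson and Spearman correlations were 0.70 and 0.47 over 69 pairs, and 0.58 and 0.44 without TSPEAR-AS1. They were 0.55 and 0.35 for overlapping 5′ ends (157 pairs), 0.34 and 0.21 for overlapping 3′ ends (76 pairs) and 0.05 and 0.08 where the antisense gene spans the partner (21 pairs). For head to head pairs with a gap they were 0.86 and 0.35 over 36 pairs, and 0.13 and 0.29 without SSTR5-AS1. The Pearson correlations of the other noncoding and coding pairs in these arrangements were 0.38, 0.50, 0.32, 0.15 and 0.33.

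The partners were also grouped by function, with groups drawn up after values had been seen, so their counts are descriptions. They stand beside 15.6% higher and 4.23% lower for the 378 antisense genes and 8.65% and 7.1% for all genes. Of 27 antisense genes of secreted factors, receptors and their signalling, 2 were higher and 3 lower, while 3 of the partners were higher and 10 lower. Both genes were called in the same direction for SSTR5, INHBA, IL6 and EGFR, but SSTR5-AS1 and IL6-AS1 reached the level through 1 group only. Of 35 next to DNA-binding transcription factors, 9 were higher and 3 lower, with 4 partners higher and 3 lower. The 9 include SREBF2-AS1, at the level through shRNF25 alone, and group counts without such genes are not given here. SATB1-AS1, THRB-AS1, GATA2-AS1 and GATA3-AS1 were among those higher, each beside a partner that was not called. GATA2-AS1 rose from 174, 197 and 216 to 323, 269 and 298 (log2 change 0.60, adjusted p = 0.0170).

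Antisense genes of zinc finger gene families were called higher in 6 of 25 cases by limma, 7 by edgeR and 4 by DESeq2. They were called lower in 0 cases by all of these tools, with 1 lower at an unadjusted limma p under 0.05, and had a median log2 change of 0.48 beside 0.16 for their partners. ZNF350-AS1, ZNF433-AS1, ZNF790-AS1, MZF1-AS1, ZBED3-AS1 and ZFHX4-AS1 made up the 6, and only ZBED3 was also called among their partners. Of 11 antisense genes of solute carriers, SLC12A9-AS1 was called higher. SLC2A1-AS1 had a log2 change of -0.63 (adjusted p = 0.116) beside SLC2A1, the glucose transporter, which fell from 9014 ± 2980.3 to 3700 ± 26.5 (adjusted p = 0.00327).

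Other named antisense and divergent loci carry suffixes such as DT, IT and AS2. Of 319 listed, 131 were at the level, 16 (12.2%) were higher and 8 (6.11%) lower, beside 8.65% and 7.1% of all genes, and the median log2 change was 0.11. LYPLAL1-DT fell from 148 ± 9.87 to 30.5 ± 8.21 (log2 change -2.27, adjusted p = 0.000234) and was chosen after its values were seen. Of 24 genes of the nuclear exosome and its adaptors, which degrade many antisense RNAs, none was higher by limma, edgeR or DESeq2, also at an unadjusted p under 0.05, and EXOSC3, a cap subunit, was lower, at 390 ± 64.8 against 236 ± 9.80 (log2 change -0.71, adjusted p = 0.0104). None of 16 genes of early termination and RNA cleavage was called by limma, edgeR or DESeq2, with 3 higher and 4 lower at an unadjusted p under 0.05. Of these, 5 also passed the adjusted p of limma, 2 higher and 3 lower, and stayed under the 1.5-fold limit. None of the 7 genes of RNA editing and double-stranded RNA sensing at the level was called either, with 0 at an unadjusted p under 0.05 by limma and 1 by edgeR and by DESeq2. Their median log2 changes were -0.09 and -0.03, beside -0.08 for the exosome.

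At the level of 10, the members just inside were L3MBTL2-AS1, MEF2C-AS1 and TFAP2A-AS1, each with 10.0 as the third highest value. Those just outside were WASHC5-AS1 at 9.95, AP4B1-AS1 at 9.53 and HHIP-AS1 at 9.53. MEF2C-AS1 had 3.32, 5.13 and 4.32 in shControl and 10.0, 10.2 and 10.5 in shRNF25, and thus entered through shRNF25, while HHIP-AS1, at 7.74, 7.18 and 1.08 against 10.0, 10.2 and 9.53, narrowly did not.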

How the data were processed

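Total RNA, depleted of ribosomal RNA and prepared with a stranded kit, was sequenced from 6 libraries of SW839 cells. The authors deposited normalized counts by symbol, a signal equal to the count divided by 1 factor per library, and 100% of the values gave back whole reads (within 0.000121 reads). The submitters' processing notes name fastp, HISAT2 and HTSeq with GRCh38, and the paper DESeq2. The annotation and strand setting are not given in the sources used here.

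Groups followed the titles. The deposited scaling was kept, log2(normalized count + 1) was fitted with limma 3.58.1 (lmFit, eBayes with trend, no covariates) in R 4.3.3 for genes of at least 10 in at least 3 libraries, and p-values were Benjamini-Hochberg adjusted over all 16554. Log2 changes, the fold limit and the fold changes of pair ratios are on this scale, which understates changes of low genes. Pair ratios were fitted likewise over 4590 pairs. With 3 libraries against 3, an exact permutation test cannot give a p under 0.1. The scripts were tested on simulated data.

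Members and lists were chosen with earlier results of these data known. Named genes are the 8 largest rises and falls among called members without overlap, pairs called in opposite directions, the 6 same-direction pairs with the largest partner change, the 5 highest levels per kb, the 6 largest ratio changes and the 3 genes on each side of the level. Others are marked. Arrangement and exon length came from GENCODE 29, matched by symbol for 29058 rows. Alternatives were other pseudocounts, filters, scalings and fold limits, a replicate block, left-out libraries, and edgeR 4.0.16 and DESeq2 1.42.0 on recovered reads. Added after the data were seen were a filter in both groups, also for pairs, and exon lengths without bases covered on the other strand. A few genes are not reported here.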

Additional observations from a re-analysis of the deposited data

How the results depend on the processing

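Among the single named genes, no alternative changed the sign of a called change. Signs of the other called genes and of the ratios under the alternatives are not given here. Requiring at least 50 in 3 libraries kept 135 pairs, with 27 antisense genes higher and 7 lower, 7 partners higher and 8 lower, 5 pairs called in the same direction, 0 in opposite directions and 31 ratios called. Quantile normalization gave 36 higher and 26 lower antisense genes. It gave 0 opposite pairs, as did no filter on low values and the replicate block. The shares of all genes called under the alternatives are not given here. A fold change of at least 2 left 34 higher and 10 lower antisense genes, 13 higher and 13 lower partners, 12 pairs in the same and 0 in opposite directions. Leaving out 1 library gave 21 to 70 antisense genes higher and 8 to 23 lower, 17 to 36 partners higher and 22 to 29 lower, 9 to 21 pairs in the same and 0 to 1 in opposite directions, and 23 to 80 ratios, with the lowest value of each count reached without a shRNF25 library. For antisense genes higher and lower, edgeR gave 64 and 16 and DESeq2 49 and 15. The filter in both groups, added after the data were seen, gave 42 and 11. Leaving out the genes at the level in 1 group only, as above, gave 46 and 13. Same-numbered libraries did not deviate together (r of -0.0638, -0.0874 and 0.0471). These correlations did not show that the numbers pair libraries and cannot exclude it. The replicate block gave 51 higher and 15 lower antisense genes and 69 ratios. Of 747 values of single named genes under alternatives, 708 kept the call by adjusted p and fold, 37 lost it and 2 gained it, and 9 values of genes not called changed sign. With exon bases covered on the other strand left out of the length, and counts unchanged, the partner's median excess per kb was 6.66-fold. Depth limits the low genes, since 1 read is worth about 1 normalized count.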
